A study of Mus musculus with 8 samples.

Results

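Mouse J1 embryonic stem (ES) cells made to carry a Zscan4c overexpression vector (OE Zscan4) were compared with J1 cells carrying a random control in a knockdown vector (KD control). These were the 2 groups of the study with abundant Zscan4 RNA. The comparison took the 17409 genes listed in both the knockdown and the overexpression gene table, of 18821 genes in either table, and 4 of the study's 8 libraries. A further 529 genes were listed only in the knockdown table and 883 only in the overexpression table, and these have no value for the contrast. The other groups, KD Zscan4 (a Zscan4 shRNA) and OE control (the overexpression vector's control), had 2 libraries each and are given beside the values of single genes.

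All cells were J1, a male mouse ES cell line, grown on gelatin with 15% serum and 10 ng/ml LIF. The KD groups received 1000 ng of pSuper puro plasmid and, from 24 h later, 2 µg/ml puromycin for 7 days. The OE groups received 1000 ng of pCMV-tag2 plasmid, in OE Zscan4 with the Zscan4c coding region behind the vector's CMV promoter, and 500 µg/ml G418 for 10 days. Monoclonal cells were then picked in both arms. The labels give the KD control genotype as wild type and that of OE Zscan4 as Zscan4c overexpressed. Vector, drug, days of selection and the clones picked all differ between the groups compared, and these cannot be told apart from the supplied Zscan4c. The labels do not say whether the libraries of a group came from separate clones or from repeat cultures, and that spread, which each p-value is measured against, may be technical.

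Zscan4 genes encode zinc-finger proteins with a SCAN domain, made in the mouse embryo at the 2-cell stage and, in ES cultures, in a small and changing share of cells. Those cells also transcribe MERVL retroviruses and other 2-cell genes, many of them activated by the transcription factor Dux. Zscan4 is known for its part in telomere lengthening and genome stability in ES cells. In bulk RNA, fewer cells of such a kind and less RNA per cell cannot be told apart.

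The Zscan4 copies lie side by side on chromosome 7 (mm10), from Zscan4a at chr7:10794242-10799057 to Zscan4-ps3 at chr7:11609308-11614112. The copies are near-identical, so reads may be divided among them with error, and reads of the introduced Zscan4c coding region cannot be told apart from those of the chromosomal genes. Of the 9 copies measured, 4 had a promoter entry in RefSeq (GRCm38.p6, the mm10 assembly): Zscan4b, Zscan4c, Zscan4d and Zscan4f. Their windows, from 250 bases before to 50 after the start site, were 95.3% to 99.3% identical in pairs. The 250 bases before the start site are shown for 3 of them because these copies were high together in both groups; capitals mark the TATAAAA motif.
Zscan4c, chr7:11005495-11005744, plus strand: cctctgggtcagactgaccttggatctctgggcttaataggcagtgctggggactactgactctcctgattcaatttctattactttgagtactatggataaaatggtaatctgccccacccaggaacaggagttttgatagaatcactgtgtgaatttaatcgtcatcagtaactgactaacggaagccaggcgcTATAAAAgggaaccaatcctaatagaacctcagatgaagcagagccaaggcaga
Zscan4d, chr7:11166149-11166398, minus strand: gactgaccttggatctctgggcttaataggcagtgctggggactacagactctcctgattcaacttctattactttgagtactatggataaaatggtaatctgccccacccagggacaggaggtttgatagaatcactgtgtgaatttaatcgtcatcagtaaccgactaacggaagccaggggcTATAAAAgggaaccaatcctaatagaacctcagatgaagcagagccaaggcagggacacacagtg
Zscan4f, chr7:11397665-11397914, plus strand: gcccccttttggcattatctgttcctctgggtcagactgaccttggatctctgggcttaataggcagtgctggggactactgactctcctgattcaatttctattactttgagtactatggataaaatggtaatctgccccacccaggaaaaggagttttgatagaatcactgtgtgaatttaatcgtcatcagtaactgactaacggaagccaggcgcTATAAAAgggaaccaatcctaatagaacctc
The motif began 54, 65 and 31 bases before the annotated start site in Zscan4c, Zscan4d and Zscan4f. TATAAAA on either strand was in 4 of these 4 windows and in 2.42% of the windows of all 11736 tested genes with an entry. TGCACAC, a motif bound by Zscan4c, was in 0 of the 4 windows and in 3.65% of all of them, on either strand.

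Each library held 17.4 to 22.4 M reads in genes. Values are given below as normalised reads, whole reads recovered from the deposited values and put on 1 scale over all 8 libraries. A log2 fold change is the difference between OE Zscan4 and KD control in log2(normalised reads + 1), which understates the change of genes with few reads. Significance was tested with limma, and a gene was called at a Benjamini-Hochberg adjusted p of 0.05 or less. By this rule 8840 of 17409 genes (50.8%) were called, 4585 higher in OE Zscan4 (26.3%) and 4255 lower (24.4%), with a median change over all genes of 0.02. At least 2-fold, 994 were higher (5.71%) and 703 lower (4.04%). Counts of list members below are read against these shares.

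The difference moved with transcript GC content. Among 12987 protein-coding genes averaging 20 or more normalised reads, the quartile lowest in GC had a median log2 fold change of 0.35, with 57.4% called higher and 7.45% lower. The quartile highest in GC had a median of -0.32, with 10.7% called higher and 52.4% lower. The KD control libraries lay at 1 end and the OE Zscan4 libraries at the other: genes of the lowest quartile deviated from the mean of 8 libraries by -0.15 and -0.19 in KD control and by 0.16 and 0.20 in OE Zscan4. When this trend was removed from each library, 7587 genes were called, of which 6128 were also among the 8840 and 6051 had the same direction. The part of this trend in single genes was not tested. Counts without it stand beside most lists. In others it moved the higher and lower counts to 12 and 12 (naive pluripotency), 8 and 19 (imprinted genes), 8 and 18 (Wnt pathway), 5 and 12 (Nodal and BMP), 4 and 15 (p53 targets) and 8 and 0 (Xlr and Rhox).

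**Figure D1:**
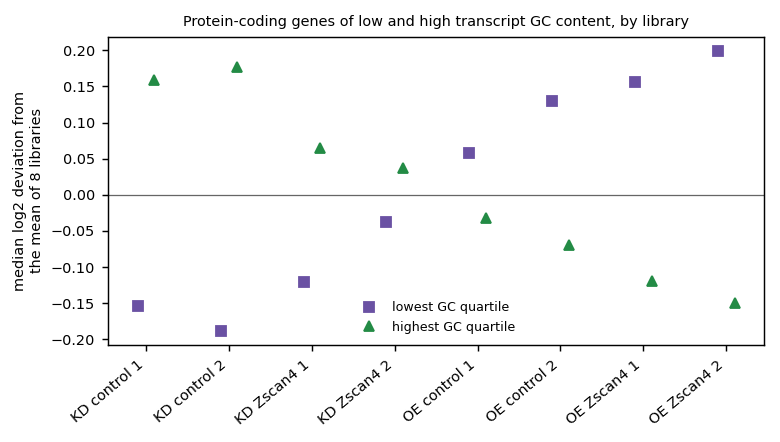
Median log2 deviation of protein-coding genes from the mean of 8 libraries (vertical axis) for each library (horizontal axis), in the quartiles of genes lowest (squares) and highest (triangles) in transcript GC content. KD control and OE Zscan4 libraries sit at opposite ends, with low-GC genes at -0.15 and -0.19 in KD control and at 0.16 and 0.20 in OE Zscan4.

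The Zscan4 genes were high in both groups and somewhat higher in OE Zscan4. Summed over 9 copies, normalised reads were 3777 and 3349 in KD control (3563 ± 303, SD, n = 2) and 5891 and 5347 in OE Zscan4 (5619 ± 384, SD, n = 2), a ratio of 1.58. The sums were 97.1 and 137 in KD Zscan4 and 361 and 391 in OE control. The 2 groups compared therefore did not overlap with each other or with the rest, and KD control lay 9.47-fold above OE control although both are controls. Zscan4c, the copy that was overexpressed, had 579 and 568 normalised reads in KD control and 1076 and 988 in OE Zscan4 (log2 fold change 0.84, SE 0.16, adjusted p = 0.00048). Zscan4c made up 16.1% of the summed reads in KD control, 18.4% in OE Zscan4 and 18% in OE control. Zscan4f (0.72), Zscan4-ps2 (0.85) and Zscan4a (0.65) were also called higher, so 4 of 9 copies passed. The other copies, Zscan4b, Zscan4e, Zscan4d, Zscan4-ps1 and Zscan4-ps3, had changes of 0.25 to 0.77 and did not pass; their 95% intervals reached from -0.30 to 1.43. The groups did not overlap for any of the 9 copies, as for 76.3% of all genes. With the GC trend removed, 3 copies were called and the median change of the family fell from 0.65 to 0.32. Fitting only the 4 libraries compared called 8 copies. Zscan4a lost its call with the GC trend removed (0.32) and without KD control replicate 2 (0.56) or either OE Zscan4 library (0.53 and 0.74).

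**Figure D2:**
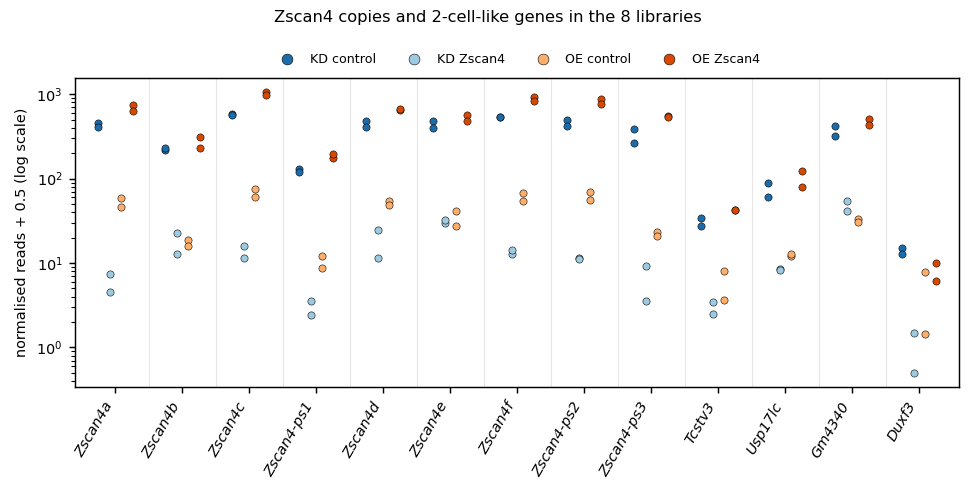
Normalised reads plus 0.5 (vertical log axis) of the 9 Zscan4 copies and 4 genes of the 2-cell programme (horizontal axis); each point is 1 of the 8 libraries, coloured by group. KD control and OE Zscan4 are both far above KD Zscan4 and OE control for every Zscan4 copy, and Duxf3 is not higher in OE Zscan4 than in KD control.

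Genes of the 2-cell-like programme beyond Zscan4 were mostly not called, and nearly all of those called were higher in OE Zscan4. Of 34 measured, 10 were called higher, against 26.3% of all genes, 1 was called lower and 23 were not called. In total 32.4% were called, against 50.8% of all genes, and the median change was 0.46. Without the GC trend 6 were higher and 1 lower (median 0.37), and fitting only the 4 libraries called 16 higher. Gm8300 had 150 and 120 normalised reads in KD control and 339 and 305 in OE Zscan4 (log2 fold change 1.26, adjusted p = 0.00037). Gm2035 rose by 1.61, Pramef25, a member of the PRAME family, by 1.30, and BB287469 by 1.25. These 3 rested on few reads, and each lost its call when 1 or another library was left out; Pramef25 fell to 0.62 without KD control replicate 2. Gm8300 stood at 0.70 with the GC trend removed, Gm2035 at 1.09, Pramef25 at 1.15 and BB287469 at 0.68. Pramef25 and BB287469 were then not called. The best-known members did not pass: Gm4340 (0.34), Usp17lc, a deubiquitinase gene (0.44), and Tcstv3 (0.45). Tcstv3 had 27.0 and 33.8 normalised reads in KD control and 41.6 and 41.6 in OE Zscan4, against 2.02 to 7.64 in the other 4 libraries. Duxf3, which encodes Dux, had the opposite sign and was not called. It had 14.4 and 12.4 normalised reads in KD control and 9.59 and 5.68 in OE Zscan4 (log2 fold change -0.77, 95% interval -2.29 to 0.74, adjusted p = 0.39). KD Zscan4 had 0 and 0.98 and OE control 0.95 and 7.25, so OE Zscan4 overlapped with OE control for Duxf3. Zfp352, another 2-cell gene, was listed only in the knockdown table, with 15 and 7 reads in KD control.

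MERVL, the retrovirus of 2-cell-like cells, was also abundant in both groups, and the direction of its difference depended on scaling. Its internal part, MERVL-int, had 5625 and 5214 normalised reads in KD control and 7874 and 7316 in OE Zscan4, against 1030 and 1389 in KD Zscan4 and 802 and 900 in OE control. With the genes' scaling this was a log2 fold change of 0.49 (adjusted p = 0.0086), and its long terminal repeat MT2_Mm changed by 0.48. Both lost their call with any 1 of the 4 libraries left out (highest adjusted p 0.148 and 0.182). Repeat names as a whole lay higher in OE Zscan4 on that scale: of 763 names, 383 were called (50.2%), 374 of them higher (49%) and 9 lower (1.18%), and their median change was 0.61. Scaled on the repeat names themselves by TMM, MERVL-int stood at -0.14 and MT2_Mm at -0.14, neither called, and 13 names were higher and 46 lower. MERVL-int was thus raised less than the median repeat name on the genes' scale. The count of called names dropped from 383 to 65 without OE Zscan4 replicate 2, to 156 without OE Zscan4 replicate 1 and to 131 without KD control replicate 2. The 5 largest rises among names, MLTR13 (2.28), RLTR44C (2.07), MamRep434 (2.03), MER113A (2.02) and MER117 (1.96), rested on few reads; RLTR44C and MER113A lost their call with an OE Zscan4 library left out and when scaled on the repeat names. Among the 9 names called lower on the genes' scale were RLTR9F (-1.25), IAPEY4_LTR (-1.03) and RLTRETN_Mm (-0.66), which had 575 and 550 normalised reads in KD control and 345 and 364 in OE Zscan4. With 1 library left out, 0 to 3 names were called lower, and the highest adjusted p of these 3 was 0.211, 0.107 and 0.061.

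Genes of the primitive endoderm, the extraembryonic layer set apart from the epiblast in the blastocyst, were lower in OE Zscan4. Of 26 measured, 23 were called lower, against 24.4% of all genes, 0 were called higher and 3 did not pass, with a median change of -1.86. With the GC trend removed 20 were lower, at a median of -1.83. Gata6, a regulator of this layer, had 471 and 384 normalised reads in KD control and 28.8 and 21.8 in OE Zscan4 (log2 fold change -4.03, SE 0.25, adjusted p = 9.9e-09). It had 25.3 and 16.6 in KD Zscan4 and 42.0 and 59.0 in OE control, so KD control alone was high. Cubn, an endocytic receptor of the yolk sac, had 631 and 645 in KD control and 44.7 and 47.3 in OE Zscan4 (-3.76), with 115 and 123 in OE control. Sox17, a transcription factor of the endoderm, had 194 and 165 in KD control and 21.3 and 12.3 in OE Zscan4 (-3.38). Pdgfra, a growth factor receptor and surface marker of the layer, fell by 3.67. Foxq1, another transcription factor gene, had 279 and 226 in KD control against 6.83 to 27.7 in the other 6 libraries. Basement membrane genes of the same layer were lower as well: Col4a1 had 4469 and 4334 in KD control and 750 and 753 in OE Zscan4 (-2.55), Col4a2 fell by 2.66 and Lama1 by 2.48. The 5 measured marker genes Gata4, Gata6, Sox17, Sox7 and Pdgfra summed to 1585 and 1415 normalised reads in KD control, to 157 and 127 in OE Zscan4, to 114 and 96.5 in KD Zscan4 and to 212 and 220 in OE control. Foxa2, the sixth marker, was listed only in the knockdown table, with 50 and 28 reads in KD control.

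**Figure D3:**
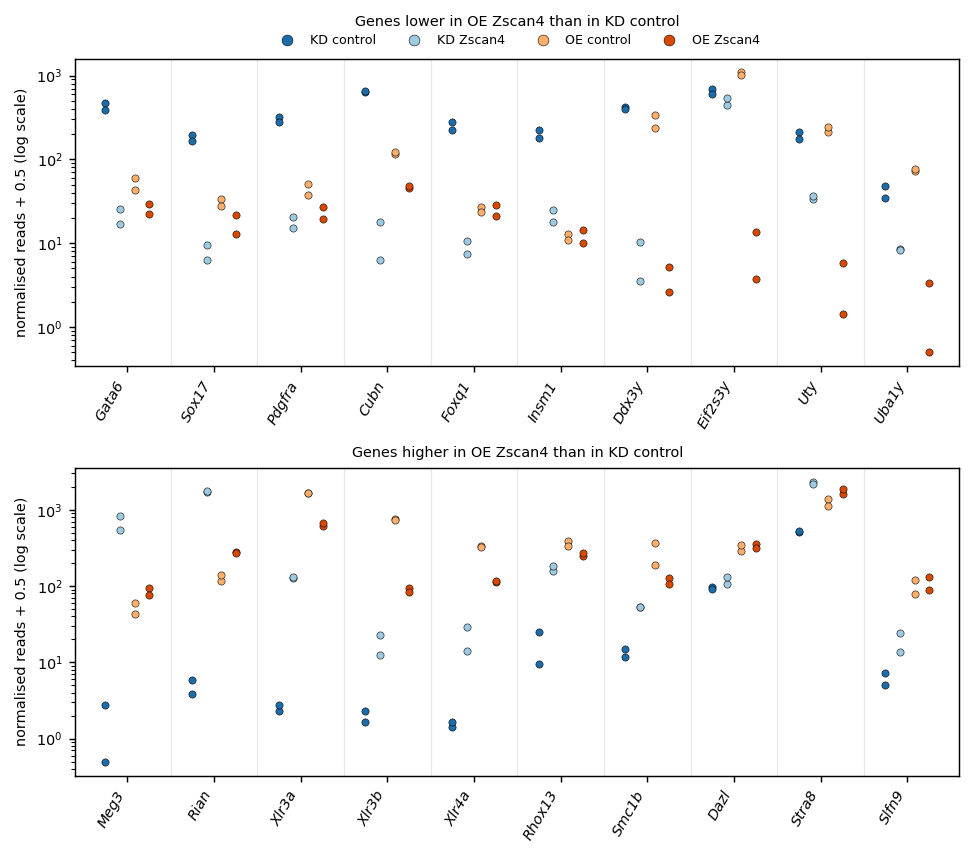
Normalised reads plus 0.5 (vertical log axis) in each of the 8 libraries (points, coloured by group) of genes lower (upper panel) and higher (lower panel) in OE Zscan4 than in KD control. Endoderm genes are high in KD control alone, the Y-linked genes shown are low in OE Zscan4, and Meg3, Rian and the Xlr genes are lowest in KD control.

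Genes of the mesoderm and of formative and primed pluripotency were also mostly lower in OE Zscan4, whereas 4 of 15 trophectoderm genes were higher and 5 lower (median -0.02). The mesoderm list and the formative list were below KD control in the other groups too. Their medians against KD control were -1.15 and -0.71 in KD Zscan4 and -1.20 and -1.29 in OE control. For OE Zscan4 minus OE control the medians were 0.05 and 0.60. Of 19 mesoderm and primitive streak genes 12 were lower and 0 higher (median -1.0; 10 lower without the GC trend), among them the transcription factors Meis1 (-2.76), Twist1 (-2.73) and Snai1 (-1.91). Wnt3, a ligand needed to form the streak, fell by 2.64 on 40.6 and 27.1 normalised reads in KD control, and lost its call when KD control replicate 1 or either OE Zscan4 library was left out. Of 10 neural genes 5 were lower and 2 higher (5 and 1 without the GC trend). The largest fall was that of Gbx2 (-1.59), which is also in the naive pluripotency list. Sox1 had 477 and 484 in KD control and 237 and 185 in OE Zscan4 (-1.19), and Sox11 fell by 1.32. The neural marker Pax6 had 403 and 361 in KD control and 398 and 382 in OE Zscan4 and was not called. Of 21 genes of formative and primed pluripotency, the states that follow the naive one, 15 were lower and 1 higher (median -0.45; 15 and 3 without the GC trend). They included Sox3 (-1.81), Cdh2, which encodes N-cadherin (-1.85), Pou3f1 (-1.40) and Dnmt3b (-1.56). Of 38 extracellular matrix and integrin genes 23 were lower and 6 higher, with 18 lower once the GC trend was removed. Insm1, a zinc-finger gene of endocrine and neural cells in the list of largest falls, had 181 and 221 in KD control and 13.9 and 9.46 in OE Zscan4 (-4.01). The marker sums of these other cell types differed less than that of endoderm: neural markers summed to 1364 and 1319 in KD control and 881 and 866 in OE Zscan4, and mesoderm markers to 82.0 and 55.3 against 52.2 and 36.9. The 2 of 5 trophectoderm markers measured summed to 146 and 125 against 90.6 and 96.5. The sum of the 3 of 6 fibroblast markers measured went the other way, with 195 and 194 against 262 and 267. Only Thy1 rose (1.09), whereas Col1a1 was called lower (-0.68) and Col1a2 stood at -0.66, not called. The part of these other cell types in the lists was not tested.

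Wnt signalling genes were lower on balance. Of 37 measured 20 were lower and 8 higher (median -0.50). Sp5, a direct Wnt target, had 144 and 170 normalised reads in KD control and 17.0 and 18 in OE Zscan4 (-3.09), and Axin2, a feedback inhibitor and target, fell by 1.51. The ligand gene Wnt5a fell by 2.10. Leaving out KD control replicate 1 or either OE Zscan4 library reduced the 8 higher Wnt genes to 5. Wnt8a was listed only in the knockdown table, with 156 and 108 reads in KD control and 7 and 11 in KD Zscan4. Of 26 Nodal and BMP pathway genes 12 were lower and 6 higher, or 3 higher without OE Zscan4 replicate 2. The BMP targets Id1 and Id3 fell by 1.29 and 1.0. Id1 had 2312 and 2359 in KD control and 902 and 1014 in OE Zscan4, with 785 to 922 in the other 4 libraries. Bmpr2, a BMP receptor gene on chromosome 1, rose by 1.19. It stood at 0.63 with chromosome medians removed and at 0.80 with the GC trend removed.

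The naive pluripotency network was split. Of 30 genes 11 were higher and 13 lower, with a median of -0.07. Nanog, a core factor, had 10712 and 10729 normalised reads in KD control and 18540 and 18186 in OE Zscan4 (log2 fold change 0.78, SE 0.05, adjusted p = 1.0e-08), the highest of the 4 groups. Sox2 rose by 0.28, with 9444 and 9756 against 11708 and 11585. Pou5f1, which encodes Oct4, had 30926 and 30886 in KD control and 29254 and 29249 in OE Zscan4 (-0.08, 95% interval -0.20 to 0.04) and was not called; its sign turned to 0.024 with chromosome medians removed and to 0.19 with the GC trend removed. Nr5a2 (0.80) and Prdm14 (0.76) were higher and Gbx2 was lower (-1.59), and all 3 lie on chromosome 1, which was higher as a whole. With chromosome medians removed, Nr5a2 stood at 0.23, Prdm14 at 0.20, no longer called, and Gbx2 at -2.16. Gbx2 had 3776 and 3651 in KD control, 1266 and 1196 in OE Zscan4, and 260 and 309 in OE control. Myc had the same order, with 2227 and 2279 in KD control, 805 and 781 in OE Zscan4 (-1.50) and 164 and 228 in OE control. The 7 ES cell markers summed to 85970 and 86703 in KD control and to 102140 and 102416 in OE Zscan4. Among them 3 were called higher (Nanog, Zfp42 and Sox2) and 2 lower (Alpl, -0.33, and Fut4, -0.61).

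Genes of the X-linked Xlr and Rhox clusters, many of them expressed in germ cells and placenta, were higher in OE Zscan4. Of 10 measured 7 were called higher and 0 lower, with a median of 2.73. Xlr3a had the largest rise of all genes tested that met the rule for naming: 1.80 and 2.26 normalised reads in KD control and 614 and 680 in OE Zscan4 (log2 fold change 7.74, SE 0.14, adjusted p = 1.1e-14). It had 125 and 131 in KD Zscan4 and 1678 and 1670 in OE control, so OE Zscan4 lay between KD Zscan4 and OE control. Xlr4a had 2 reads in KD control and 227 in OE Zscan4, a ratio of 114 with a counting interval of 31.1 to 943. Xlr3b had 3 reads against 177 (59.0, interval 19.9 to 289). These intervals cover counting error only. Xlr3 and Xlr4 copies are alike in sequence and may share reads. Rhox13, a homeobox gene of the germline, had 24.3 and 9.02 in KD control and 244 and 272 in OE Zscan4 (4.02). A further 5 Xlr genes, Xlr4b, Xlr4c, Xlr5a, Xlr5b and Xlr5c, were listed only in the overexpression table; Xlr5a had 517 and 474 reads in OE control and 25 and 27 in OE Zscan4.

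Noncoding RNAs made from the imprinted Dlk1-Dio3 locus, normally transcribed from the maternal chromosome 12, were nearly undetected in KD control. Meg3 had 0 and 2.26 normalised reads in KD control and 93.8 and 75.7 in OE Zscan4, on 2 and 168 reads (ratio 84.0, counting interval 22.9 to 699). Rian had 5.41 and 3.38 in KD control, 278 and 274 in OE Zscan4, 116 and 139 in OE control, and 1721 and 1776 in KD Zscan4 (log2 fold change 5.71, adjusted p = 6.3e-12). KD control was thus the lowest group for both and KD Zscan4 the highest. Mirg, from the same region, had 2 reads in KD control and 26 in OE Zscan4. Of 37 imprinted genes 10 were called higher and 18 lower. Peg10, a retrotransposon-derived gene expressed from the paternal copy, had 11612 and 12350 in KD control and 2528 and 2709 in OE Zscan4 (-2.19).

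The stretches before the start sites of Xlr3a and Rian, which were among the largest rises, are shown. Capitals mark CG dinucleotides, the sites of DNA methylation.
Xlr3a, chrX:73097096-73097345, minus strand: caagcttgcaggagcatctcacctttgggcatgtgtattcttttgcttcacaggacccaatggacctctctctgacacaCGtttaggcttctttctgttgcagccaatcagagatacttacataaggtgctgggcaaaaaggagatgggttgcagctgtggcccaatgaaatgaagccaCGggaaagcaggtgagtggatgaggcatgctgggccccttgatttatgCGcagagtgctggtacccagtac
Rian, chr12:109603695-109603944, plus strand: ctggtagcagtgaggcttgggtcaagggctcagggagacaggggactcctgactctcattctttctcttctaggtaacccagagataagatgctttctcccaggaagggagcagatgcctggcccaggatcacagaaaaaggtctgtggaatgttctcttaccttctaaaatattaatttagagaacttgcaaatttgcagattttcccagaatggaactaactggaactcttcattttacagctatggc
Xlr3a had 5 CG dinucleotides in its whole window of 300 bases, 3 of them in the bases printed, and Rian had 0. The 659 genes called at least 2-fold higher that had an entry held a median of 10 CG dinucleotides, against 20 for all tested genes and 19 for the 477 called at least 2-fold lower. These calls were made with the GC trend left in, by which genes low in transcript GC were more often called higher. The part of that trend in these CG counts was not tested. Methylation was not measured.

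Germline and meiosis genes were higher. Of 27 measured 17 were called higher and 1 lower (median 0.73), and without the GC trend 16 were higher (median 0.59). Smc1b, a cohesin subunit of meiosis, had 14.4 and 11.3 normalised reads in KD control and 128 and 105 in OE Zscan4 (3.09). Meioc, which keeps meiotic prophase going, rose by 2.37, and Dazl, an RNA-binding protein of germ cells, by 1.82. Stra8, an inducer of meiosis, had 509 and 519 in KD control and 1613 and 1887 in OE Zscan4 (1.76); OE control had 1393 and 1126, and KD Zscan4 had 2322 and 2199. For each of these 4 genes KD control was the lowest of the 4 groups.

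Among telomere maintenance genes, chosen for the known role of Zscan4, 11 of 27 were higher and 9 lower (median 0.14), and without the GC trend 9 and 8 (median -0.03). Terf1, a telomere-binding protein on chromosome 1, had 1333 and 1333 normalised reads in KD control and 2504 and 2721 in OE Zscan4 (0.97), and stood at 0.40 with chromosome medians removed. Terc, the telomerase RNA, rose by 1.46 on 17.1 and 9.02 against 24.5 and 53, and lost its call without KD control replicate 2 or OE Zscan4 replicate 2. The DNA recombination genes Nbn (0.90) and Dmc1 (1.08) were higher. Of 19 genes of DNA methylation and demethylation 9 were lower and 5 higher (8 and 2 without the GC trend, and 2 or 3 higher with any 1 of the 4 libraries left out); Tet3, a methylcytosine oxidase, fell by 1.36 and Dnmt3l by 0.73. Hells, a chromatin remodeller, rose by 0.76 and by 0.20 with the GC trend removed. Of 50 genes listed as repressors of retroelements 17 were higher and 16 lower, or 10 and 20 without the GC trend. Of the 4 largest called changes in this list, Myc fell (-1.50), and Atrx (1.15), Ncl (1.04) and Rif1 (0.94) rose. Whether the listed genes repress retroelements in these cells was not tested. Atrx, Ncl and Rif1 stood at 0.67, 0.73 and 0.46 with the GC trend removed. Ncl, on chromosome 1, stood at 0.47 with chromosome medians removed. Trim28, the corepressor recruited by zinc-finger proteins, fell by 0.39 (60621 and 62272 in KD control, 47827 and 45889 in OE Zscan4), and by 0.06, not called, with the GC trend removed.

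Cytosolic ribosomal protein genes were higher in 63 of 74 cases and lower in 2 (median 0.42), with 64 and 2 after the GC trend was removed. The 3 largest rises, Rpl31 (1.16), Rpl7 (1.15) and Rpl37a (0.93), are all on chromosome 1 and stood at 0.60, 0.59 and 0.36 with chromosome medians removed. All 13 mitochondrially encoded genes were higher (median 0.66), but these are low in GC, and without the trend 4 were higher and 2 lower (median 0.09). Of 25 sterol synthesis genes 19 were higher and 4 lower (20 and 1 without the GC trend, and 2 lower without KD control replicate 2 or OE Zscan4 replicate 2). Msmo1, a methylsterol oxidase, had 1196 and 1182 normalised reads in KD control and 3130 and 3263 in OE Zscan4 (1.43), and 4822 and 4503 in OE control. Of 28 genes of the amino acid stress response 15 were higher and 5 lower (19 and 3 without the GC trend, and 3 lower without KD control replicate 2 or OE Zscan4 replicate 1); Psat1, of serine synthesis, rose by 1.26 and Asns, asparagine synthetase, by 1.10. Of 28 targets of p53 14 were lower and 4 higher, and leaving out OE Zscan4 replicate 1 reduced the 14 to 8, and OE Zscan4 replicate 2 the 4 to 2. Cdkn1a, which encodes p21, had 739 and 695 in KD control and 612 and 617 in OE Zscan4 (-0.22), both far under OE control with 1586 and 1548. Its call was lost with the GC trend or chromosome medians removed and without KD control replicate 1 or OE Zscan4 replicate 1. Of 44 DNA replication genes 28 were higher and 8 lower (median 0.27), or 22 and 9 without the GC trend. In the remaining lists, calls in both directions or few calls were found: 15 and 7 of 35 glycolysis and hypoxia genes were higher and lower, 7 and 3 of 19 interferon genes, 4 and 2 of 15 antigen presentation genes, 9 and 6 of 55 histone genes, 3 and 4 of 14 fibroblast genes and 2 and 0 of 5 metallothionein genes. Without the GC trend these counts were 16 and 7, 8 and 2, 4 and 2, 13 and 6, 3 and 3, and 4 and 0 in the same order, and 5 and 4 for trophectoderm. The higher interferon genes numbered 3 without KD control replicate 1 and 4 without OE Zscan4 replicate 1, and the lower ones 1 without KD control replicate 2 or OE Zscan4 replicate 1. The higher antigen presentation genes numbered 2 without KD control replicate 2 and 1 without OE Zscan4 replicate 2, and the lower ones 1 without either of these or KD control replicate 1. The lower fibroblast genes numbered 2 without KD control replicate 2. Oas1a, an antiviral sensor, had 36.1 and 32.7 in KD control and 174 and 148 in OE Zscan4 (2.19). Tap1, a peptide transporter for antigen presentation, had 139 and 140 against 27.7 and 37.8 (-2.07).

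**Figure D4:**
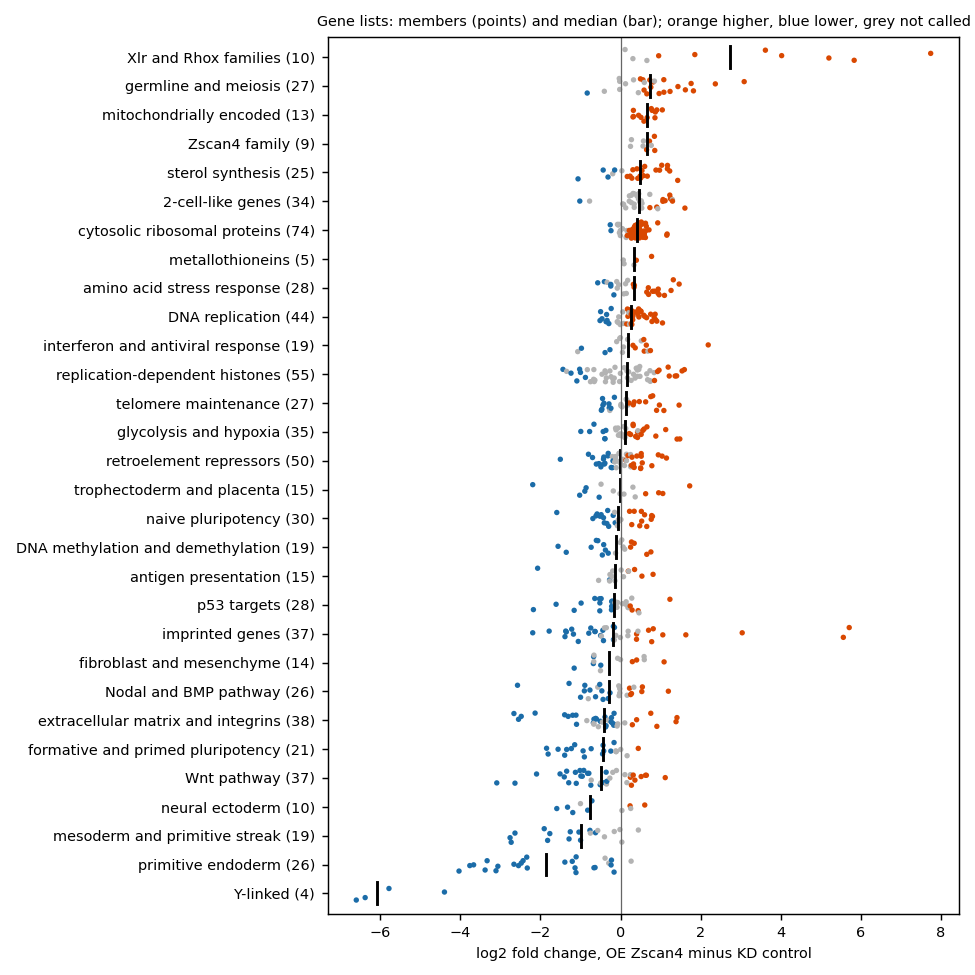
Log2 fold change, OE Zscan4 minus KD control (horizontal axis), of the members of 30 gene lists (rows, with the number of members measured); points are genes, orange called higher, blue called lower and grey not called, and bars are medians. The Y-linked and primitive endoderm lists lie farthest to the left, at medians of -6.08 and -1.86, and the Xlr and Rhox list farthest to the right, at 2.73.

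The 4 genes of the Y-linked list were nearly lost from OE Zscan4, and all 4 were called lower (median -6.08). Another protein-coding gene of chromosome Y, Gm47283, named after its values were seen, had 262 and 197 normalised reads in KD control and 208 and 157 in OE Zscan4 (-0.33) and was not called. It lies between 80 and 100 Mb of chromosome Y, and the 4 listed genes lie within the first 20 Mb. Whether the reads of Gm47283 came from chromosome Y was not tested. Ddx3y, an RNA helicase, had 426 and 394 normalised reads in KD control and 2.13 and 4.73 in OE Zscan4 (-6.60, SE 0.39, adjusted p = 4.8e-09), and 239 and 340 in OE control. Eif2s3y, a translation initiation factor, had 684 and 602 against 3.2 and 13.2 (-6.38), and 450 and 542 in KD Zscan4. Uty fell by 5.78, and Uba1y had 80 reads in KD control and 3 in OE Zscan4. Ddx3y was also low in KD Zscan4, at 3.04 and 9.75. Uty had 33.4 and 36.1 there against 210 and 176 in KD control, and Uba1y had 8.09 and 7.80 against 34.3 and 47.4. Eif2s3y was not called lower in KD Zscan4.

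Chromosome 1 was higher in OE Zscan4 along its whole length. The 718 protein-coding genes there that averaged 20 or more normalised reads had a median log2 fold change of 0.60, a ratio of 1.51; 89.3% of the changes were positive, 540 were called higher and 36 lower. In windows of 20 Mb its medians ran from 0.46 to 0.82. The medians of chromosomes 2 to 19 ran from -0.12 to 0.18. KD Zscan4 and OE control were also above KD control on chromosome 1, with medians of 0.55 and 0.65, whereas OE Zscan4 and OE control differed by -0.06. With the GC trend removed the median of chromosome 1 was 0.48. DNA copy number was not measured here.

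**Figure D5:**
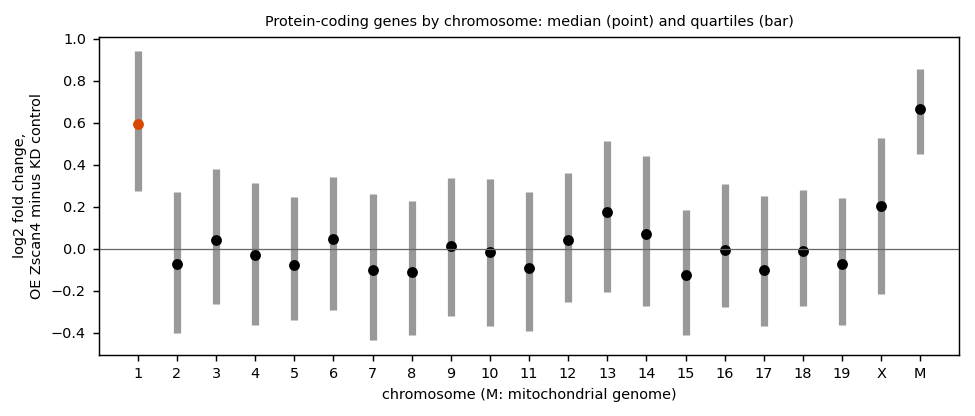
Median (points) and quartiles (bars) of the log2 fold change, OE Zscan4 minus KD control (vertical axis), of protein-coding genes by chromosome (horizontal axis, M is the mitochondrial genome and chromosome Y is left out). Chromosome 1 stands at 0.60, above chromosomes 2 to 19, whose medians lie between -0.12 and 0.18.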

How the data were processed

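RNA of 8 libraries was measured by mRNA-seq amplified over 11 PCR cycles. The gene and repeat tables hold signal values that the authors deposited per arm, which read as whole reads divided by 1 factor per column; cutadapt, HISAT2, featureCounts, DESeq2 and mm10 are named in the submitters' processing notes, versions not given in the sources used here. Every deposited signal was a whole multiple, within 0.01 reads, of its column's smallest step (100% of values), so reads were recovered, and TMM factors (edgeR 4.0.16) were computed over the shared genes of all 8 libraries. Every listed gene had at least 19 reads over its table's 4 libraries, so genes low in 1 arm are missing. limma 3.58.1 (R 4.3.3) was fitted with trend on log2(normalised reads + 1) over 4 groups, two-sided, with Benjamini-Hochberg adjustment over all genes. Libraries were matched by title; their descriptions number them 2 and 4 in place of 1 and 2. Replicates of each group differed by more than sampling noise (chi-square per degree of freedom 2.85 to 4.84).

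The rule for naming took the Zscan4 copies and the 12 largest rises and 12 largest falls. Those rises and falls had at least 20 mean normalised reads and no overlap between groups. It also took up to 4 called members of each of 30 lists, those with the largest changes. The 5 largest repeat rises and falls and fixed genes were added. Not all of these are described in the text. Members and lists were chosen with earlier results of these data known. Alternatives were other scalings, pseudocounts (0.25 and 5), a filter of 1 CPM, limma-voom, edgeR and DESeq2 (1.42.0) on recovered reads, fewer libraries or chromosomes, and a replicate block. Removal of chromosome medians and of the GC trend, and all alternatives for the Zscan4 sum and the chromosome medians, were added after seeing the data. The limma test was also run on simulated counts with known changes in a small share of genes. Those counts held no GC or chromosome trend, so they cannot show how the test behaves with such trends. Of gene identifiers, 17394 matched GENCODE M21 and 15 did not. A result that the rule for naming would include is not reported here.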

Additional observations from a re-analysis of the deposited data

How the results depend on the processing

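Of 137 named genes 127 were called, 112 of these stayed called under every alternative run for them and 0 changed sign. Pou5f1, not called, turned to 0.024 with chromosome medians removed and to 0.19 with the GC trend removed. The count of called genes was 7262 by DESeq2, 8869 by edgeR and 8825 by limma-voom, 7396 without chromosomes 1, 11 and Y, 8356 with chromosome medians removed and 6900 to 7441 with 1 library left out. Scaling to total reads shifted the median of all genes by -0.10 and gave 3689 higher and 5215 lower.

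The replicate numbers were not used as pairs in the main fit. Deviations of same-numbered libraries correlated at -0.02 between KD control and OE Zscan4. Over all pairs of groups the correlations lay between -0.05 and 0.21, the highest between KD Zscan4 and OE control. With a replicate block 8876 genes were called, 4623 higher and 4253 lower.

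Called repeat names numbered 59 with TMM over repeat names (13 higher, 46 lower) and 59 with median-of-ratios over them (15 and 44). MERVL-int then stood at -0.14 and -0.13 and MT2_Mm at -0.14 and -0.13; the cause was not tested. Fitting only the 4 libraries called 16 names lower. With 1 library left out, 65 to 275 names were called, 65 to 272 higher and 0 to 3 lower.

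The chromosome 1 median was 0.58 with median-of-ratios, 0.50 with total reads, 0.58 with pseudocount 5, 0.57 with the CPM filter, 0.59 with DESeq2, 0.48 with the GC trend removed and 0.58 to 0.60 with 1 library left out. The median of 5 chromosome Y genes, -5.78, was -6.22 with pseudocount 0.25, -4.65 with pseudocount 5, -6.08 with limma-voom, -6.02 with DESeq2, -6.43 with the GC trend removed and -5.92 to -5.36 with 1 library left out.

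Depth limits the genes with few reads in KD control, such as Meg3, and those in 1 table only.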

Other observations

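Gene classes differed in their shares of calls. Of 815 processed pseudogenes 21.2% were called higher in OE Zscan4 and 2.45% lower (median 0.26), and of 486 long intergenic noncoding RNAs 23.5% were higher and 8.85% lower. Of 723 antisense genes 8.71% were higher and 11.8% lower (median -0.09), and of 79 miRNA genes 6.33% were higher and 16.5% lower. Of 14333 protein-coding genes 28.2% were higher and 28.1% lower. Reads of processed pseudogenes may come from their parent genes.

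Slfn9, a member of the Schlafen family, had 4.51 and 6.77 normalised reads in KD control and 87.4 and 131 in OE Zscan4 (4.04), with 78.3 and 120 in OE control. Crxos, a homeobox gene, had 1.80 and 1.13 in KD control and 50.1 and 29.3 in OE Zscan4, against 249 and 239 in OE control. Defb42, a beta-defensin gene, had 1 read in KD control and 57 in OE Zscan4, a ratio of 57.0 with a counting interval of 9.83 to 2291. Sema6a, a semaphorin, had 92.0 and 85.7 in KD control and 3.2 and 8.51 in OE Zscan4 (-3.83).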
